A study of Oryza sativa Indica Group with 6 samples.

Results

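PRX74 and PRX112 are class III peroxidases of rice, and their expression was examined in whole seedlings that overexpress *Abp57* and in wild-type seedlings. The members were all genes whose symbol or synonym in the NCBI rice gene table is prx followed by a number, paired by gene identifier with the transcript clusters of the array. The rule found 2 genes, and both had a cluster of their own, out of 14662 genes with such a cluster. The table gives a synonym for 3391 of its 39387 genes, so peroxidases without a prx number there are not among the members. PRX74 (gene identifier 4339222, symbol LOC4339222) lies on chromosome 5, and PRX112 (gene identifier 4344279, synonym POXGX9) lies on chromosome 7. No coordinates are given, since the gene table is of a *japonica* assembly and the array is of ssp. *indica*.

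The overexpressing plants were T3 seedlings of cultivar MR219 that overexpress *Abp57*, an auxin-binding protein gene introduced through *Agrobacterium*, and the control was wild-type MR219 of the same age. All seedlings were grown for 10 days on MS medium, diluted per the sample records, and were used whole, root and shoot together. Each genotype had 3 biological replicates of at least 3 seedlings, with 1 array for each replicate. The promoter of the transgene and the number of independent lines are not given in the sources used here, and the signal of *Abp57* itself was not analysed because no table used here names its locus.

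Class III peroxidases are secreted plant heme enzymes that oxidise phenolic substrates with hydrogen peroxide. In the cell wall they couple monolignols into lignin and cross-link wall polymers, which stiffens the wall, and they can also generate reactive oxygen species. Plant peroxidases are known to oxidise auxin as well, and the family is large in grasses, with many members used in roots or induced by wounding and pathogens.

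The values are log2 signals after robust multi-array average normalization (RMA), and a difference of 1 on this scale is a doubling. The 6 arrays had median signals between 5.21 and 5.30. In the markers of dividing tissue, the median deviation of 7 measured markers from their 6-array mean was 0.19, -0.36 and -0.29 in overexpression replicates 1, 2 and 3, against 0.55, 0.57 and -0.75 in wild-type replicates 1, 2 and 3. Wild-type replicate 3 thus stood apart from the other wild-type arrays in these markers, and overexpression replicate 1 from the other overexpressing arrays. The marker deviations were positive in wild-type replicates 1 and 2 and overexpression replicate 1, and negative in the other arrays. In the paper's RNA quality readings, sample 3 of each genotype had the highest RNA integrity number. The part of RNA quality in the values was not tested. Of 6 listed shoot markers 5 had a cluster of their own, and 0 passed the thresholds used below. Their median log2 difference of overexpression minus wild type was 0.55, or 0.26 without wild-type replicate 3, with values from -0.05 for the chlorophyll-binding protein gene CAB2R to 0.68 for rca, Rubisco activase. The genotypes were apart, higher in overexpressing rice, for rca and for RBCS, the small subunit of Rubisco. Over all clusters 13.0% were apart in either direction. RBCS had signals of 12.81 to 13.05 in overexpressing rice and of 11.66 to 12.76 in the control. Its log2 difference was 0.55, or 0.19 without wild-type replicate 3. Without that array rca had 0.88 against 0.68, and CAB1R, another chlorophyll-binding protein gene, 0.29 against 0.21. The glutamine synthetase gene GS2 had 0.26 against 0.67, and CAB2R -0.11 against -0.05. Of the 4 listed root markers only the silicon transporter Lsi2 had a cluster of its own, with signals of 7.26 to 7.89 in overexpressing rice and 6.90 to 7.85 in the control.

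The expression of PRX74 did not differ detectably between overexpressing and control seedlings. Its log2 signal was 7.44, 7.20 and 7.18 in overexpression replicates 1, 2 and 3, against 7.60, 7.26 and 6.66 in wild-type replicates 1, 2 and 3. All 3 overexpressing values lay inside the range of the control, whose lowest value was that of replicate 3. The mean was 7.27 ± 0.14 in overexpressing rice and 7.17 ± 0.47 in the control (SD, n = 3 each). The log2 difference of overexpression minus wild type was 0.10 (standard error 0.24, adjusted p = 0.949 from limma), with a 95% confidence interval from -0.44 to 0.64. As a ratio this interval runs from 0.736 to 1.56, so a doubling or a halving of PRX74 lies outside it.

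PRX112 likewise showed no detectable difference between the genotypes. Its log2 signal was 6.54, 7.10 and 6.66 in overexpression replicates 1, 2 and 3 and 7.18, 7.00 and 6.26 in wild-type replicates 1, 2 and 3. The genotypes overlapped fully, with the highest and the lowest of the 6 values both in the control. The mean was 6.77 ± 0.29 in overexpressing rice and 6.82 ± 0.49 in the control (SD, n = 3 each). The log2 difference was -0.05 (standard error 0.26, adjusted p = 0.979 from limma), with a 95% confidence interval from -0.65 to 0.55, or 0.636 to 1.47 as a ratio, which likewise leaves out a doubling and a halving. A further cluster is shared in the platform table by PRX112 and LOC4349541 and was left out by the rule. It had signals of only 2.54 to 3.16, and its log2 difference was 0.08 (standard error 0.21).

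**Figure D1:**
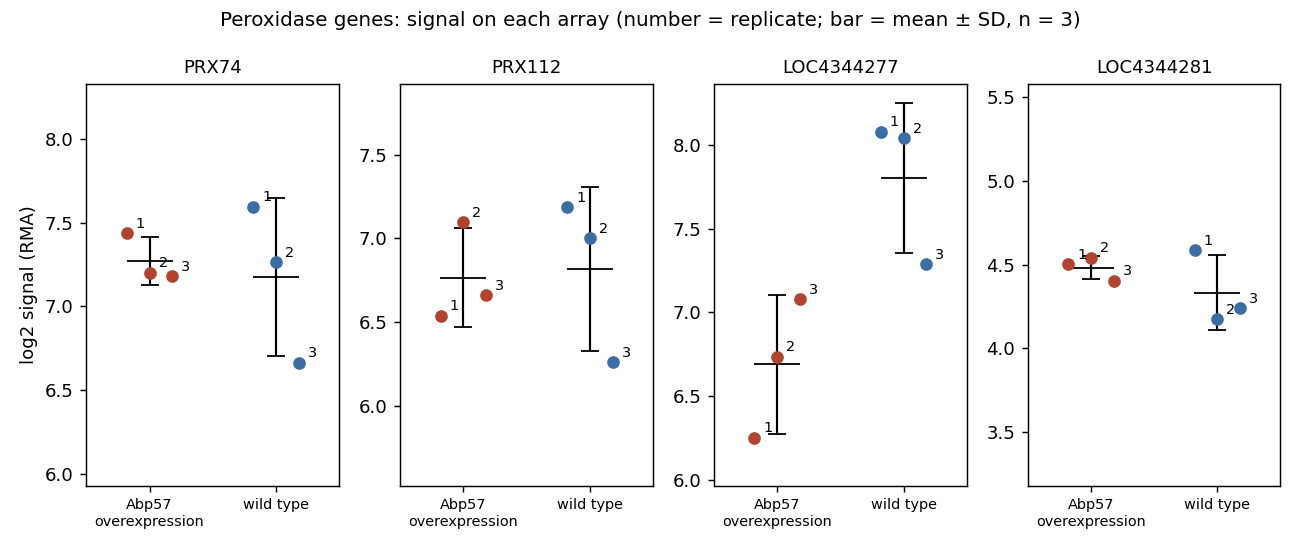
Log2 RMA signal (vertical axes, each spanning the same number of log2 units) of PRX74, PRX112 and the PRX112 neighbours LOC4344277 and LOC4344281 on each array, with *Abp57*-overexpressing seedlings on the left and wild-type seedlings on the right of each panel. Points are arrays numbered by replicate and bars are mean ± SD (n = 3); the genotypes overlap for PRX74, PRX112 and LOC4344281, while the overexpressing arrays of LOC4344277, at 6.25 to 7.08, lie below the wild-type arrays, at 7.29 to 8.08.

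Neither gene passed the thresholds of the study's methods, which ask for more than a doubling or halving together with a p under 0.05 before adjustment. With limma 0 of the 2 were higher and 0 were lower, 0 had an unadjusted p under 0.05 and 0 had an adjusted p under 0.05, and the methods' one-way test also called 0. Over all 41770 clusters 0.335% were higher and 0.172% lower at the fold and the unadjusted p, 6.88% had an unadjusted p under 0.05 and 0.0144% an adjusted one. The genotypes were apart, with no overlap of their 3 values each, for 0 of the 2 genes, against 13.0% of all clusters. With so few members these counts are too small to be read against the background. Absolute log2 differences smaller than that of PRX74 were found in 35.3% of all clusters, and smaller than that of PRX112 in 18.7%.

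Both genes spread further over the control arrays than the means of the genotypes differed. PRX74 spanned 0.26 log2 units over the 3 overexpressing arrays and 0.93 over the 3 control arrays. PRX112 spanned 0.56 log2 units in overexpressing rice and 0.92 in the control. The residual SD within genotypes was 0.35 for PRX74 and 0.40 for PRX112, above those of 82.8% and 88.4% of all clusters. Of the 41770 clusters 26035 are paired with no gene, and the array medians lie below the signals of both genes. The comparison was not made among genes of like signal. Both genes were lowest in wild-type replicate 3 and highest in wild-type replicate 1. Over all clusters 18.7% were lowest in wild-type replicate 3 and 15.3% were highest in wild-type replicate 1. Among the 14662 genes with a cluster of their own, 3284 were lowest in wild-type replicate 3. The array most often lowest was overexpression replicate 1, with 25.9% of all clusters. The deviation from the 6-array mean in wild-type replicate 3 was -0.56 for PRX74 and -0.53 for PRX112.

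The overexpressing arrays did not order the genes alike. Overexpression replicate 1 deviated by 0.21 for PRX74 and by -0.25 for PRX112, and overexpression replicate 2 by -0.02 and 0.31 for the same genes. The dividing tissue markers, with a median deviation of -0.75 in wild-type replicate 3, moved with the low values of both peroxidases on that array. PRX74 had the sign of these markers on every array, while PRX112 had the opposite sign in overexpression replicates 1 and 2. The part of the markers in the result was not tested. Without wild-type replicate 3 the log2 difference was -0.16 for PRX74 (95% confidence interval -0.56 to 0.25) and -0.33 for PRX112 (-0.79 to 0.14), so that the sign of PRX74 turned and neither gene passed the thresholds.

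**Figure D2:**
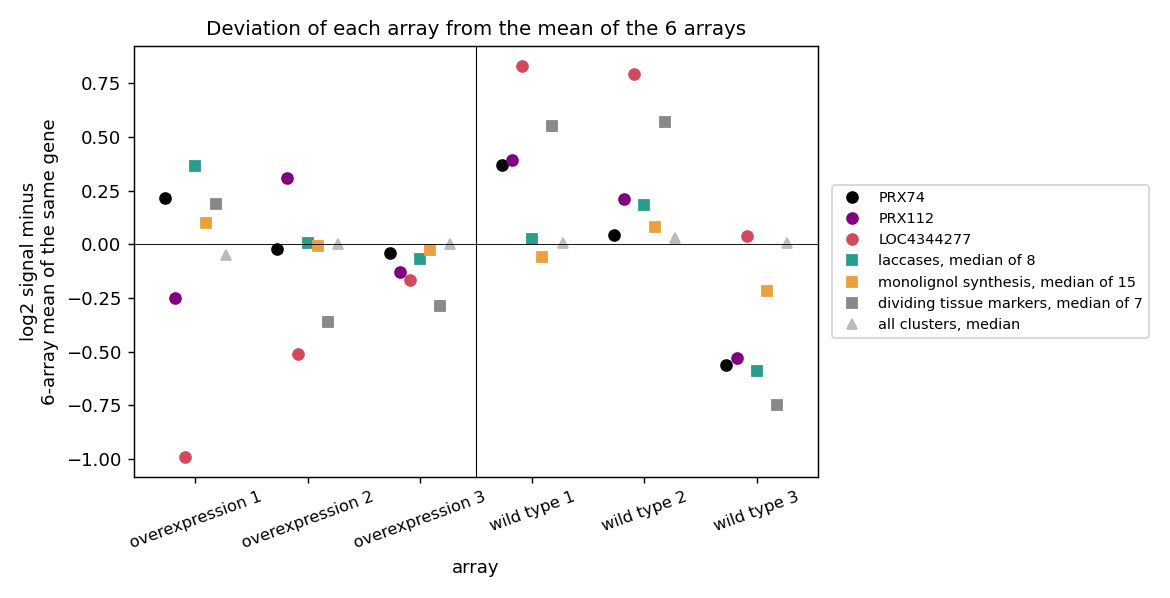
Log2 signal minus the 6-array mean of the same gene (vertical axis) on each array (horizontal axis), with overexpressing arrays left of the vertical line and wild-type arrays right of it. Circles are single genes, squares are list medians and triangles are the median of all clusters; in wild-type replicate 3 PRX74 and PRX112 lie at -0.56 and -0.53, near the laccases at -0.59 and the dividing tissue markers at -0.75, while the median of all clusters is 0.01.

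PRX112 belongs to a row of peroxidase genes on chromosome 7, and 1 of its neighbours fell in overexpressing rice. In the order of the gene table LOC4344277 is the next gene on one side with 0 genes between, and LOC4344281 follows on the other side with 1 gene between. Both are named peroxidase in the table without a prx number, and they are given here as neighbours and not as members. PRX74 had no gene named peroxidase among its neighbours with at most 5 genes between.

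LOC4344277 had log2 signals of 6.25, 6.74 and 7.08 in overexpression replicates 1, 2 and 3, against 8.08, 8.04 and 7.29 in wild-type replicates 1, 2 and 3. The genotypes did not overlap. Its log2 difference was -1.11 (standard error 0.28, unadjusted p = 0.0037 and adjusted p = 0.555 from limma), so it passed the fold and the unadjusted p but not the adjusted one. The study's own list of changed clusters, called on these arrays, holds its cluster, so its passing was known beforehand. It was short of a fold of 2 without any one of overexpression replicate 1, wild-type replicate 1 and wild-type replicate 2, at -0.89, -0.97 and -0.99. LOC4344281 had log2 signals of 4.40 to 4.54 in overexpressing rice and of 4.17 to 4.59 in the control, and its log2 difference was 0.15 (standard error 0.16, adjusted p = 0.870 from limma).

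The difference between PRX112 and LOC4344277 was also taken within each array, a comparison chosen after their values were seen. The signal of LOC4344277 minus that of PRX112 was -0.29, -0.36 and 0.42 in overexpression replicates 1, 2 and 3 and 0.89, 1.04 and 1.02 in wild-type replicates 1, 2 and 3. The genotypes did not overlap, and the mean was -0.08 ± 0.43 in overexpressing rice and 0.98 ± 0.08 in the control (SD, n = 3 each), a difference of -1.06 (exact permutation test, two-sided, p = 0.1, the smallest p that 3 arrays against 3 can give). Without wild-type replicate 3 the difference was -1.04. The corresponding value for LOC4344281 minus PRX112 was 0.20 (exact permutation test, two-sided, p = 0.5). Neighbouring peroxidase genes can be close copies that share probes, and this was not tested because no probe or protein sequences were used here.

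The other steps of peroxide and lignin metabolism were described by 5 lists with 53 genes, of which 37 had a cluster of their own. At the fold and the unadjusted p, 0 of the 37 were higher and 1 was lower, beside 0.335% and 0.172% of all clusters, and 6 had an unadjusted p under 0.05, beside 6.88% of all clusters. Over all clusters the median log2 difference was -0.03. Among the 14662 genes with a cluster of their own the median was 0.007. Of these genes 68 were higher and 40 were lower, and 1252 had an unadjusted p under 0.05.

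Of the NADPH oxidases, which produce superoxide in the apoplast, only RBOHB was listed and measured. Its log2 signal was 8.67, 7.66 and 7.59 in overexpression replicates 1, 2 and 3 and 7.94, 7.94 and 6.46 in wild-type replicates 1, 2 and 3, with a log2 difference of 0.52 (standard error 0.44). The genotypes overlapped, and wild-type replicate 3 was again the lowest array. Without it the log2 difference of RBOHB was 0.03.

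Of the 13 listed superoxide dismutases, catalases and ascorbate peroxidases, which form or remove hydrogen peroxide inside the cell, 9 were measured and 0 passed in either direction. Their median log2 difference was 0.10. An unadjusted p under 0.05 from limma was reached by 4 of the 9, 2 of them higher, beside 6.88% of all clusters. The genotypes were apart for APX2, higher at 0.37 (standard error 0.15), and for APX1, which was lower. Over all clusters 13.0% were apart in either direction. APX1, a cytosolic ascorbate peroxidase, had log2 signals of 8.20, 8.55 and 8.40 in overexpression replicates 1, 2 and 3, against 9.56, 9.47 and 8.73 in wild-type replicates 1, 2 and 3. The genotypes were apart, and the log2 difference was -0.87 (standard error 0.23, adjusted p = 0.565 from limma), short of a fold of 2. It was -1.13 with folds from Tukey's biweight, an average that gives less weight to outlying arrays. Without wild-type replicate 3 it was also -1.13, with an adjusted p of 0.046 from limma. Without any one of the other arrays it lay between -0.95 and -0.72, with adjusted p from 0.708 to 0.989 from limma. The share of all clusters under an adjusted p of 0.05 was 0.0144% with all 6 arrays. It was not counted without wild-type replicate 3, so the 0.046 has no background share beside it. APX1 had 2 clusters of its own, and averaging them gave a log2 difference of -0.75. The study's own list holds the APX1 cluster used here. At the other end APX8, a chloroplast ascorbate peroxidase, had a log2 difference of 0.59 (0.22) with overlapping genotypes. The catalase gene CAT-A had -0.55 (0.20) and CAT-B -0.02 (0.22). The list therefore held differences of both signs, from -0.87 to 0.59.

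Of 5 listed peroxiredoxins, thiol enzymes that reduce peroxides without heme, 4 were measured and 0 passed. The log2 differences lay between -0.32 for PRXIIE-1 and 0.37 for bas1, a chloroplast 2-Cys peroxiredoxin, and the median was 0.08. The genotypes were apart for PRXIIC, higher at 0.30 (standard error 0.13, adjusted p = 0.727 from limma), beside 13.0% of all clusters in either direction. These genes bear names like those of the prx series but belong to another enzyme family.

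The 22 listed genes of monolignol synthesis make the substrates that wall peroxidases polymerise, and 0 of the 15 measured passed. Their median log2 difference was 0.06, and the values ran from -0.24 for PAL06, a phenylalanine ammonia-lyase gene, to 0.67 (standard error 0.31) for 4CL1, a 4-coumarate:CoA ligase gene. Without wild-type replicate 3 the median was -0.02, PAL06 had -0.40 and 4CL1 had 0.28, and without wild-type replicate 1 PAL06 had -0.14. The ligase gene 4CL2 had log2 signals of 7.50, 7.22 and 7.20 in overexpression replicates 1, 2 and 3 and 6.77, 6.72 and 6.77 in wild-type replicates 1, 2 and 3. Its genotypes were apart, beside 13.0% of all clusters in either direction. The log2 difference of 0.55 (standard error 0.14, adjusted p = 0.564 from limma) was under the fold of 2. CAD2, a cinnamyl alcohol dehydrogenase gene of lignin synthesis, had -0.05 (0.16). Of the 15 genes 7 were lowest in wild-type replicate 3, beside 3284 of the 14662 genes with a cluster of their own.

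Laccases are copper oxidases that couple monolignols with oxygen in place of peroxide. Of 12 listed genes 8 were measured, 1 fell and 0 rose, beside 0.172% lower and 0.335% higher of all clusters. The median log2 difference was 0.28, beside -0.03 over all clusters. It was 0.13 without wild-type replicate 3 and 0.16 without overexpression replicate 1. LAC19 had log2 signals of 6.18, 7.57 and 6.90 in overexpression replicates 1, 2 and 3, against 8.45, 8.46 and 7.44 in wild-type replicates 1, 2 and 3. The genotypes overlapped at overexpression replicate 2 and wild-type replicate 3. Its log2 difference was -1.23 (standard error 0.39, adjusted p = 0.648 from limma), but -0.88 without overexpression replicate 1, and its p by the methods' one-way test missed the threshold. LAC20 had log2 signals of 7.13, 4.90 and 4.68 in overexpression replicates 1, 2 and 3, against 4.95, 4.61 and 4.11 in wild-type replicates 1, 2 and 3. Its log2 difference of 1.02 (standard error 0.59) rested on overexpression replicate 1 and was 0.23 without it. Like PRX74 and PRX112, 5 of the 8 laccases were lowest in wild-type replicate 3, beside 3284 of the 14662 genes with a cluster of their own.

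**Figure D3:**
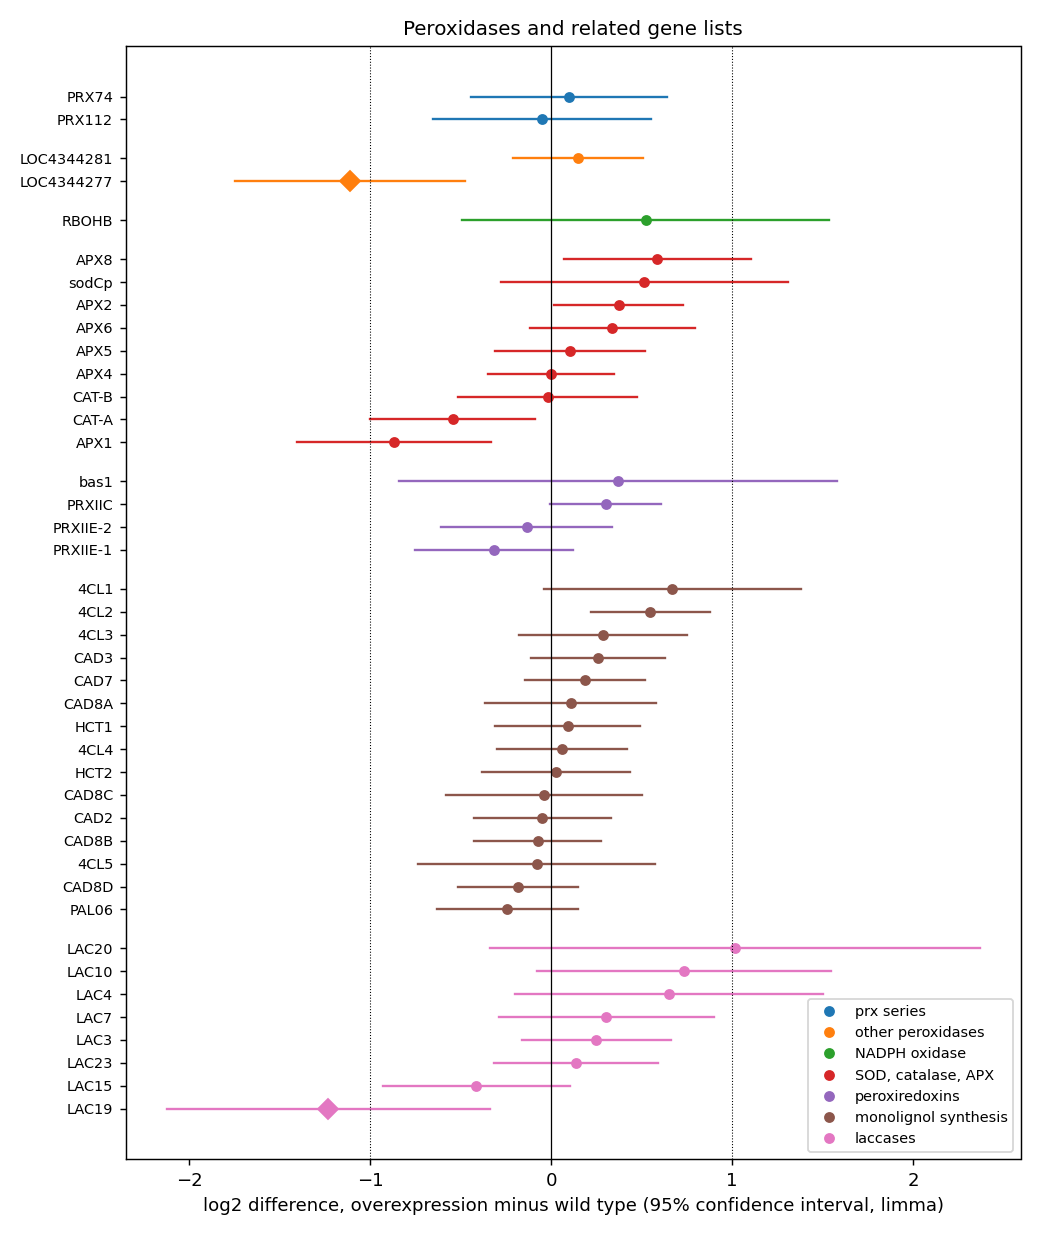
Log2 difference of overexpression minus wild type (horizontal axis) with limma's 95% confidence interval for PRX74, PRX112, the other genes named peroxidase and the 37 measured genes of the 5 lists (rows, coloured by list). Diamonds mark genes past both thresholds, the fold and the unadjusted p, and dotted lines mark a fold of 2; only LOC4344277 at -1.11 and LAC19 at -1.23 are diamonds, and the intervals of PRX74 and PRX112 span 0.

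Genes whose pattern over the 6 arrays was most like that of each member were ranked by Pearson's r among the 14661 other genes, by a rule chosen after the values were seen. For PRX74 the first were LOC4333900, LOC4339617 and LOC4347443, with r of 0.997, 0.997 and 0.995, and the fourth was the chitinase gene Cht7 with 0.990. For PRX112 they were LOC9268428, LOC4335595 and LOC4326549, with 0.991, 0.985 and 0.979. An r over 0.9 was reached by 451 genes (3.08%) with PRX74 and by 81 (0.552%) with PRX112, and the points share the same RNA and normalization. PRX74 and PRX112 had an r of 0.69 with each other.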

How the data were processed

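RNA of 6 whole-seedling samples was hybridised to Affymetrix Rice (Cn) Gene 1.0 ST arrays. The authors ran RMA in Affymetrix Expression Console and deposited log2 signals for 41770 transcript clusters, taken here without further normalization. Software versions are not given in the sources used here, and the scanned intensities were not analysed here. Precision is limited by the number of arrays.

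The platform annotation pairs 15299 clusters with 1 gene, 436 with several and 26035 with none. Where a gene had several clusters the one of highest mean was taken, and clusters of several genes were left out. Names came from the NCBI table of assembly ASM3414082v1. The methods of the study compare the genotypes by an unpaired one-way test at a fold over 2 and an unadjusted p under 0.05. Here lmFit and eBayes of limma 3.58.1 (R 4.3.3) were fitted to all clusters with 2 groups and no covariate. P-values were adjusted over all clusters by Benjamini-Hochberg, and folds came from mean log2 signals. The fitting script was tested on simulated data. Rose and fell mean that a gene passed the fold and the unadjusted p.

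The members and lists were chosen with earlier results of these data known. Of the list names 9 were dropped before values were read, because they denote other genes in the table. Named list genes were those past the thresholds and the highest and lowest difference of each list. The genes 4CL2, CAT-A, CAT-B, CAD2, APX2 and PRXIIC were named after their values were seen. A comparison of protein sequences was planned and not run. The alternatives were the one-way test of the methods (with plain folds or with Tukey's biweight), a variance trend with intensity, a filter that leaves out the 25% dimmest clusters, a second quantile normalization, loess between arrays, weighted arrays, the replicate number as a block, averaging the clusters of a gene, and leaving out single arrays.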

Additional observations from a re-analysis of the deposited data

How the results depend on the processing

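Under all 15 alternatives 0 of the 2 prx genes passed the fold and the unadjusted p in either direction or an adjusted p. The genotypes overlapped for both under the 9 alternatives that change the signals or the arrays used. The filter on the 25% dimmest clusters kept both genes. The sign was not stable: PRX74, at 0.10, had -0.019 with the biweight fold and -0.10 with array weights, and ranged from -0.16 to 0.31 when 1 array was left out (negative without wild-type replicate 3, -0.16). PRX112, at -0.05, had -0.38 with the biweight fold and -0.18 with array weights, ranged from -0.33 to 0.13 with 1 array left out, and was positive without overexpression replicate 1 (0.06), overexpression replicate 3 (0.0023), wild-type replicate 1 (0.13) or wild-type replicate 2 (0.04). The lowest unadjusted p among the alternatives was 0.206 for PRX74 and 0.144 for PRX112. The median of the 2 genes ranged from -0.24 to 0.22 with 1 array left out.

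Arrays of the same replicate number did not all deviate together from their genotype means. Their correlations were 0.35 for number 1, -0.11 for number 2 and 0.21 for number 3, so the numbers were not taken as pairs. Overexpression replicate 1 had 0.18 with wild-type replicate 2 and -0.37 with wild-type replicate 3. Overexpression replicate 2 had -0.25 with wild-type replicate 1 and 0.26 with wild-type replicate 3. Overexpression replicate 3 had -0.18 and -0.11 with wild-type replicates 1 and 2. Overexpression replicate 1 thus went with wild-type replicates 1 and 2, and the other overexpressing arrays with wild-type replicate 3. With the replicate block PRX74 and PRX112 kept 0.10 and -0.05, while LAC20 passed, giving 1 higher laccase against 0. With the biweight fold RBOHB had -0.32 against 0.52, bas1 -0.59 against 0.37, and 1 gene of the dismutase, catalase and ascorbate peroxidase list (APX1) was lower against 0. Both forms of the methods' test gave 0 lower laccases against 1. With array weights bas1 had -0.14 and the peroxiredoxin median was -0.16 against 0.08. With 1 array left out, bas1 ranged from -0.15 to 0.70 (-0.14 without overexpression replicate 1, -0.15 without wild-type replicate 3), the peroxiredoxin median from -0.18 to 0.22, the median of the dismutase, catalase and ascorbate peroxidase list from -0.042 to 0.20 with 0 to 1 lower, and the laccases gave 0 to 1 higher and 0 to 1 lower. The laccase median, 0.28, was 0.034 with the biweight fold and 0.15 with array weights. The causes were not tested.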
